A study of Mus musculus with 7 samples.

Results

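Ribosome biogenesis factors are the proteins that transcribe, modify, cut and package ribosomal RNA in the nucleolus. Their genes were followed in mouse spleen cells enriched for NK cells and cultured with or without interleukin 2 (IL2). The genes were listed by name, with earlier results of these data known. Of 43 listed factors, 41 had a probe that carried their symbol alone and were described here, among 19752 genes tested. Ppan lay only on a probe that carries a further gene symbol and was left out by that rule, and Noc2l was not analysed here. Of the 41, 4 encode subunits of RNA polymerases I and III and 6 the cores of the small nucleolar ribonucleoproteins (snoRNPs). A further 13 act in assembly of the small subunit, 12 in assembly of the large subunit, and 6 are nucleolar proteins with several roles. The data were 7 Affymetrix Mouse Gene 1.0 ST arrays, 4 from an 8 h culture in 250 U/ml IL2 (replicates 1 to 4) and 3 of untreated cells from the same 8 h protocol (replicates 2 to 4). The cells of both groups came from spleens of male C57BL/6 mice aged 6 weeks, were enriched for NK cells by EasySep negative selection, and carry NK1.1 as their labelled marker. No genetic change and no agent other than IL2 is given in the labels. Whether the replicates were separate mice or cultures is not labelled, and the p-values measure the spread between these samples, which may be technical.

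As background, ribosome production starts when RNA polymerase I copies the ribosomal DNA into a long precursor, while RNA polymerase III makes the 5S RNA and the transfer RNAs. Box C/D snoRNPs guide methylation and box H/ACA snoRNPs guide pseudouridylation of the precursor, which the small-subunit processome and the large-subunit assembly factors cut and fold around ribosomal proteins. Resting lymphocytes keep this pathway low and raise it on activation before they grow and divide, and MYC is a well known activator of its genes.

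The groups were checked first against markers of cell types. Of 10 NK cell markers, 6 rose with IL2, and their summed intensities were 21354 to 25992 in IL2 arrays, against 6140 to 9714 in untreated arrays. Of 17 macrophage and monocyte markers, 15 were measured and 9 fell, with sums of 7065 to 10089.5 in IL2 arrays, against 19402 to 21515 in untreated arrays. B cell markers (9 measured, 1 fell) had sums of 14354 to 15006 with IL2 and 16640 to 19349 in untreated arrays. Of 10 neutrophil markers 1 fell, with sums of 2221 to 4137 in IL2 arrays, against 5393 to 7170 in untreated arrays. Of 10 dendritic cell markers 1 fell, and of 9 T cell and 5 erythroid markers 0 were called. In untreated arrays the sums of macrophage and monocyte markers and of B cell markers were above those of NK cell markers. Signal of other cell types was thus large in these samples, though sums over different genes do not measure shares of cells. No probe has an intensity of 0 on these arrays, so no marker can be called absent. What part these shifts in markers had in the results below was not tested, and in such bulk samples a change in the mix of cells and a change in RNA per cell cannot be told apart. The 75th percentile of intensity per array was 291 to 350 with IL2 and 278 to 318 in untreated cells.

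All 41 factors had a higher mean with IL2 than in untreated cells, and 18 of them rose by the limma test at a Benjamini-Hochberg adjusted p under 0.05 over all genes, while 0 fell. Over all genes tested, 2.08% were called higher, and 45.5% had a positive difference. The list was made with earlier results of these data known, so these counts cannot measure how unusual its genes are. The median log2 difference of the 41 was 0.83, a 1.78-fold higher level, against -0.01 for all genes, and single differences lay between 0.33 (Pes1) and 1.48 (Polr1b). Of the 18 called factors 10 were at least 2-fold higher, which 1.12% of all genes were. For 32 of the 41 every IL2 array lay above every untreated array, a pattern seen for 6.25% of all genes. A further 20 factors had an unadjusted p under 0.05 (38 of 41 in all, against 8.81% of all genes in the higher direction) but did not pass the correction. No filter on signal was applied, so that all 41 entered the test. Of them 40 had a mean signal at or above the median of all genes, and Polr3g was below it.

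**Figure D1:**
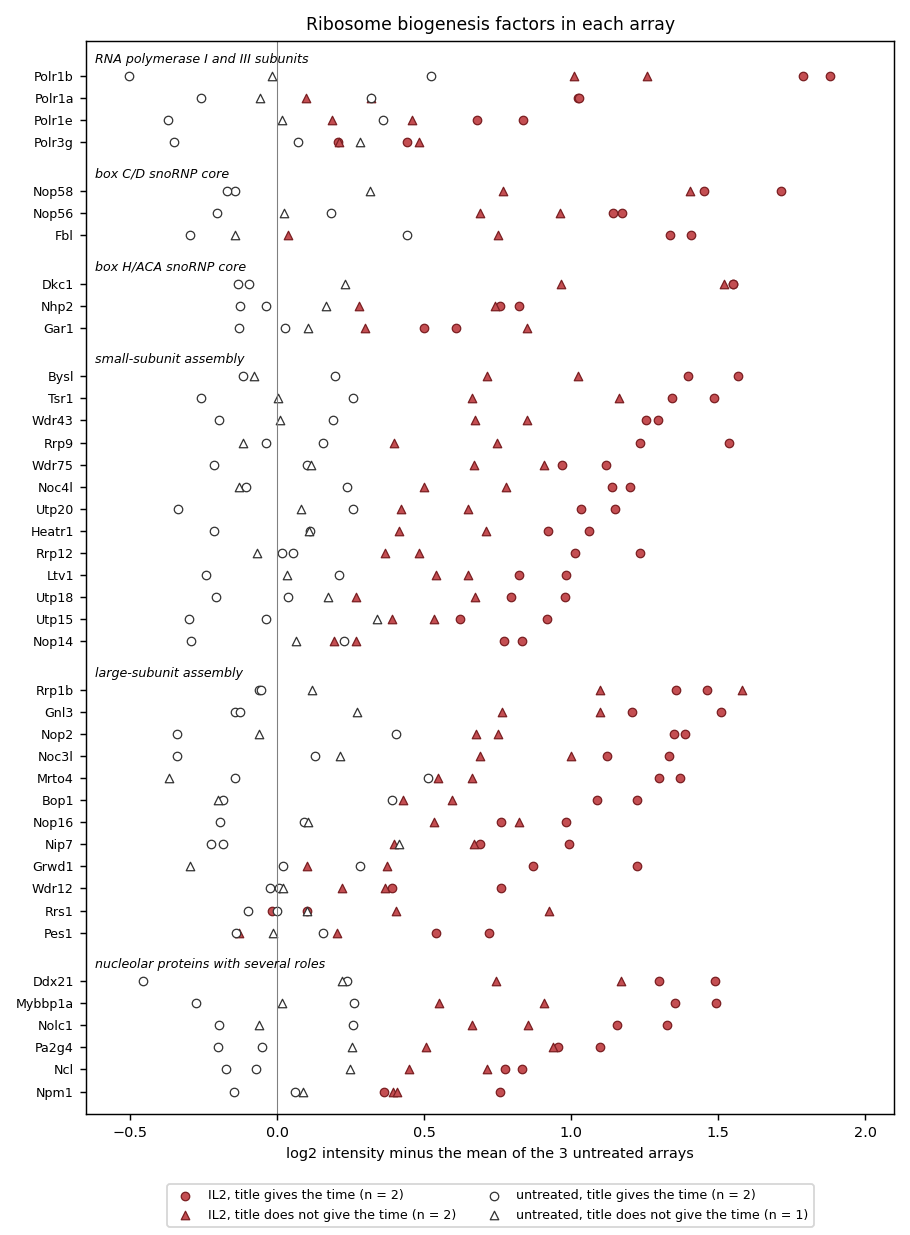
Each row is 1 factor, and each point 1 array, placed at its log2 intensity minus the mean of the 3 untreated arrays of that factor. Filled points are the 4 IL2 arrays and open points the 3 untreated arrays, with circles where the sample title gives the time and triangles where it does not. In 32 of 41 rows every filled point lies to the right of every open one, and in 35 rows both filled triangles lie to the left of both filled circles.

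The promoters at both ends of this range are shown because all differences had 1 direction and varied in size. RefSeq (build GRCm38.p6) held a window from 250 bases before to 50 after the transcript start for 36 of the 41 genes, in 39 windows. In 27 of these windows that start was also the RefSeq start of the gene. Lines below give the window of Polr1b and Dkc1, the factors with the largest differences, and of Polr3g and Pes1, those with the smallest among genes with a window, from 5′ to 3′. Capitals mark the E-box CACGTG, to which MYC with its partner MAX is known to bind, the ETS core CCGGAAG and the TATA sequence TATAAA, searched on both strands (an ETS core on the other strand reads CTTCCGG here).
Polr1b (chr2:129100746-129101045, plus strand): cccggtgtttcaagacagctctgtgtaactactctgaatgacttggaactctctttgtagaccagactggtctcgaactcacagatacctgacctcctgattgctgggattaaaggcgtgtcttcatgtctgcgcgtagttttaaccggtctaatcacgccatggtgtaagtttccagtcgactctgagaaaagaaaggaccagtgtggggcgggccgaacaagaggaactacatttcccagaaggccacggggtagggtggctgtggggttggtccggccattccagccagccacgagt
Dkc1 (chrX:75095604-75095903, plus strand): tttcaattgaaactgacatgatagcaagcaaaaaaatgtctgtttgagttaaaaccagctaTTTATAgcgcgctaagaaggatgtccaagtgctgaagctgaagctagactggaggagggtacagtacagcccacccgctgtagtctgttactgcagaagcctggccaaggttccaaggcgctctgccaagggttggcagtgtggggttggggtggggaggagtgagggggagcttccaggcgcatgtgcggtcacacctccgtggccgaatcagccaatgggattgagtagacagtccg
Polr3g (chr13:81710964-81711263, minus strand): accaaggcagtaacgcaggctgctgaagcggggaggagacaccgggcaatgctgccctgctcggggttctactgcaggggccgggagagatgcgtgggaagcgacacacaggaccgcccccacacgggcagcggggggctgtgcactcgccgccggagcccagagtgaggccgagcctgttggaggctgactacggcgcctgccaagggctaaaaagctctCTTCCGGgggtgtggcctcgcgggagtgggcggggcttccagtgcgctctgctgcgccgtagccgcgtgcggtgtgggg
Pes1 (chr11:3963725-3964024, plus strand): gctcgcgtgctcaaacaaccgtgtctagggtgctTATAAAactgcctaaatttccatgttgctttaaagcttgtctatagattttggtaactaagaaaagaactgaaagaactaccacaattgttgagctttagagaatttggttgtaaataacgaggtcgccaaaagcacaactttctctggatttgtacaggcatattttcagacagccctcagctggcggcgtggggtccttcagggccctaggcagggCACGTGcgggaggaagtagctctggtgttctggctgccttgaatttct
Polr1b, Dkc1 and Polr3g had no E-box in this window, and Pes1 had 1 at the transcript start.

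Across the factors with a window, 9 of 36 genes (25%) held an E-box. An E-box was held by 9.51% of 15483 tested genes with a window and by 8.09% of all 27025 genes with one. It was found in 3 of the 18 called factors (16.7%) and in 6 of the 18 not called that had a window (33.3%). The ETS core was in 13 of 36 genes (36.1%), against 13.7% of tested genes and 9.93% of all genes with a window. TATAAA was in 2 (5.56%), against 13.6% of tested genes and 15.7% of all genes with a window. Of the other genes of the pathway, 112 had a window, and 21 of them (18.8%) held an E-box and 50 (44.6%) the ETS core. Matches of the 3 motifs did not overlap each other. The median share of G and C was 59.67% in the factors' windows and 57.67% in those of all tested genes. These are counts of letters with no test, and a match is not a bound site. The 9 E-boxes are given with up to 10 bases on either side, in capitals, to show that their flanks differ.
Nop2 (chr6:125131813-125131838, plus strand): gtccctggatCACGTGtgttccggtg
Grwd1 (chr7:45830740-45830765, minus strand): gccggagtcgCACGTGtgaaaccgga
Ltv1 (chr10:13193094-13193119, minus strand): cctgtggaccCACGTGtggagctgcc
Utp20 (chr10:88826765-88826787, minus strand): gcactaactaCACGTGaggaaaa
Pes1 (chr11:3963967-3963992, plus strand): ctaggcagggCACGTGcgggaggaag
Mybbp1a (chr11:72441357-72441376, plus strand): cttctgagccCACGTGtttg
Tsr1 (chr11:74898094-74898119, plus strand): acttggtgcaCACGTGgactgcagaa
Utp18 (chr11:93885771-93885796, minus strand): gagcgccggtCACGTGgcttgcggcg
Wdr43 (chr17:71616222-71616247, plus strand): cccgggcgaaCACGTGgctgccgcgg
The E-box of Nop2 began 60 bases and that of Utp18 20 bases before the transcript start, and the other 7 began 2 to 40 bases after it.

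Of the polymerase subunits only Polr1b passed the test, and no difference between subunits was tested. Polr1b, the second largest subunit of RNA polymerase I (transcript cluster 10475965), had log2 intensities of 9.07, 9.32, 9.85 and 9.95 in IL2 replicates 1 to 4, against 8.05, 7.56 and 8.59 in untreated replicates 2 to 4. Every IL2 array was above every untreated one, although untreated replicates 3 and 4 were themselves far apart. The means were 9.55 ± 0.42 (SD, n = 4) with IL2 and 8.06 ± 0.51 (n = 3) in untreated cells, a log2 difference of 1.48 (SE 0.29, limma adjusted p = 0.0405) or 2.8-fold. Polr1a, the largest subunit (10539042), had 8.50, 8.72, 9.43 and 9.43 in IL2 replicates 1 to 4, against 8.34, 8.14 and 8.72 in untreated replicates 2 to 4. IL2 replicates 3 and 4 stood above the rest, while IL2 replicate 1 lay below untreated replicate 4, and the difference of 0.62 (SE 0.26, limma adjusted p = 0.366) did not pass the test. Polr3g, a subunit of RNA polymerase III (10410877), had 6.47, 6.74, 6.70 and 6.46 in IL2 replicates 1 to 4, against 6.54, 5.90 and 6.33 in untreated replicates 2 to 4. Untreated replicate 2 was higher than IL2 replicates 1 and 4, and the difference was 0.33 (SE 0.16, limma adjusted p = 0.432). The mean signal of Polr3g was the lowest of all the factors and below the median of all genes. Polr1e, the PAF53 subunit of polymerase I, had a difference of 0.54 with overlapping groups and did not pass. In all, 1 of 4 subunits rose, with a median of 0.58. The call of Polr1b held without IL2 replicate 1 and ended without any other single array (adjusted p of 0.0625 to 0.148).

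Of the box C/D core, Nop58 and Nop56, paralogous scaffold proteins, rose, and the methyltransferase gene Fbl (fibrillarin) did not pass the test. Nop58 (10346634) had log2 intensities of 7.80, 8.44, 8.48 and 8.74 in IL2 replicates 1 to 4, against 7.35, 6.88 and 6.86 in untreated replicates 2 to 4. The lowest IL2 array, replicate 1, exceeded the highest untreated array, replicate 2. The difference was 1.34 (SE 0.23, limma adjusted p = 0.0245), or 2.52-fold. Nop56 (10476093) had 10.43, 10.70, 10.92 and 10.88 in IL2 replicates 1 to 4, against 9.77, 9.54 and 9.93 in untreated replicates 2 to 4. Its groups were apart and close within themselves, and its difference was 0.99 (SE 0.15, limma adjusted p = 0.0135). Fbl (10551464) had 8.58, 9.30, 9.88 and 9.95 in IL2 replicates 1 to 4, against 8.40, 8.25 and 8.99 in untreated replicates 2 to 4. IL2 replicate 1 lay inside the untreated range and IL2 replicates 3 and 4 far above it, and the difference of 0.88 (SE 0.35, limma adjusted p = 0.31) did not pass. The less bright probe of Fbl gave 0.65. Nop58 lost its call without IL2 replicate 2, 3 or 4 or untreated replicate 3 or 4 (adjusted p of 0.0757 to 0.121), and Nop56 without IL2 replicate 2, 3 or 4 or untreated replicate 3 (0.0558 to 0.0601).

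Of the box H/ACA core, Dkc1, the pseudouridine synthase dyskerin, rose. Dkc1 (10600485) had log2 intensities of 8.52, 9.07, 9.10 and 9.10 in IL2 replicates 1 to 4, against 7.78, 7.45 and 7.41 in untreated replicates 2 to 4. IL2 replicates 2, 3 and 4 were nearly equal and replicate 1 was lower, yet above all untreated arrays. The means were 8.95 ± 0.29 (SD, n = 4) with IL2 and 7.55 ± 0.20 (n = 3) in untreated cells, a difference of 1.40 (SE 0.17, limma adjusted p = 0.00642) or 2.63-fold, and the call held in all 7 fits that each left out 1 array (adjusted p of at most 0.047). Nhp2 (10375880), an RNA-binding core protein, had 7.70, 8.16, 8.18 and 8.24 in IL2 replicates 1 to 4, against 7.59, 7.29 and 7.38 in untreated replicates 2 to 4. Gar1 (10502146), which binds dyskerin, had 8.57, 9.13, 8.78 and 8.88 in IL2 replicates 1 to 4, against 8.38, 8.30 and 8.15 in untreated replicates 2 to 4. In both genes every IL2 array was above every untreated one, but their differences of 0.65 (SE 0.15, limma adjusted p = 0.0701) for Nhp2 and 0.56 (SE 0.14, limma adjusted p = 0.084) for Gar1 did not pass the correction. Without IL2 replicate 1, which was the lowest IL2 array for each of these core proteins, both passed (differences of 0.77 and 0.65, limma adjusted p = 0.0132 and 0.04). Over the 6 core proteins of both snoRNP kinds 3 rose, with a median of 0.94.

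**Figure D2:**
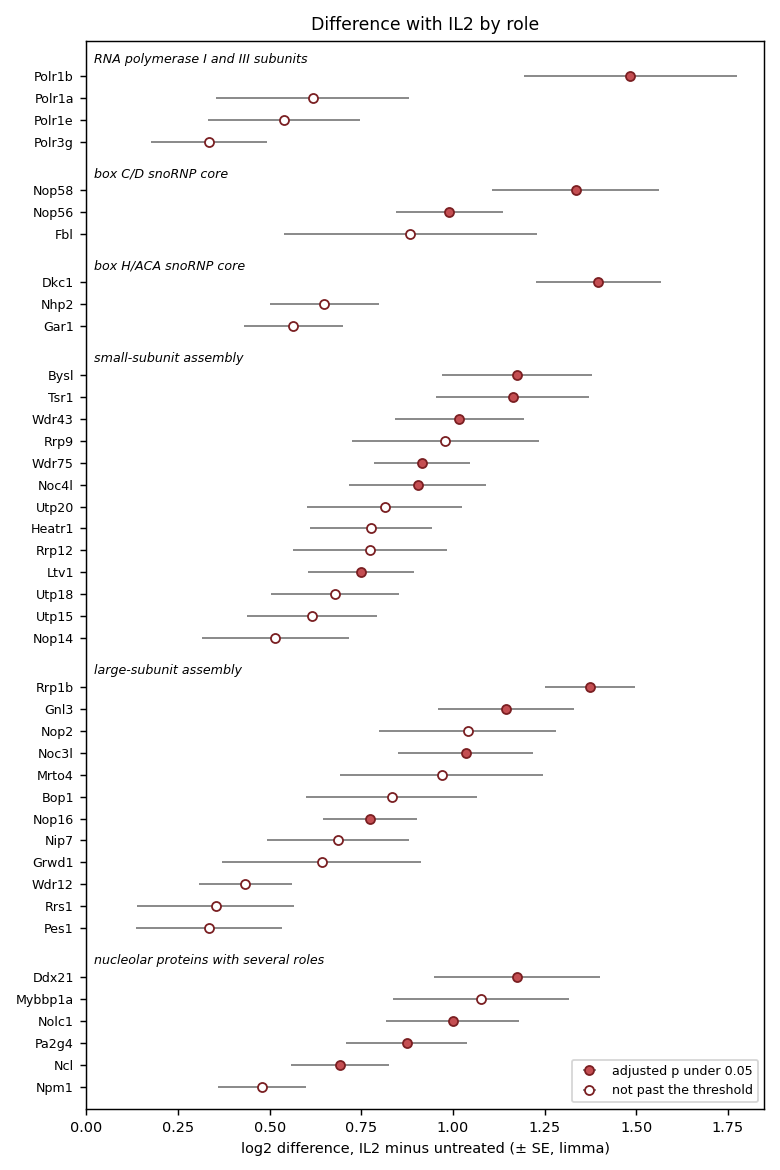
The log2 difference of each factor, IL2 minus untreated, is drawn with its SE from limma, grouped by role and ordered by size within a role. Filled points passed an adjusted p of 0.05 over all 19752 genes (18 factors) and open points did not (23), and all 41 lie above 0.

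Among the 13 small-subunit factors 6 rose and the groups were apart for 12, with a median difference of 0.81. Bysl, or bystin (10451580), which acts late in maturation of the small subunit, had log2 intensities of 7.36, 7.67, 8.04 and 8.21 in IL2 replicates 1 to 4, against 6.57, 6.53 and 6.84 in untreated replicates 2 to 4. Untreated arrays were close together and every IL2 array was above them, and the difference was 1.18 (SE 0.20, limma adjusted p = 0.0263), or 2.26-fold. Tsr1, a factor of cytoplasmic small-subunit maturation (10378508), had 8.11, 8.62, 8.79 and 8.94 in IL2 replicates 1 to 4, against 7.45, 7.19 and 7.71 in untreated replicates 2 to 4. Its difference was 1.16 (SE 0.21, limma adjusted p = 0.0302), and its promoter window holds an E-box and an ETS core. The other rises were in Wdr43 (1.02) and Wdr75 (0.92), processome proteins of the subcomplex that links transcription to processing, in Noc4l (0.90), a partner of Nop14 in yeast, and in Ltv1 (0.75), which accompanies the pre-40S particle. Those that did not pass were Rrp9 (0.98), a protein of the U3 snoRNP, Utp20 (0.81), Heatr1 (0.78), Rrp12 (0.77), Utp18 (0.68), Utp15 (0.62) and Nop14. Heatr1, a large processome protein, missed the threshold by least (adjusted p = 0.0551). Nop14 (10529425), the smallest of these differences, had 7.74, 7.81, 8.32 and 8.38 in IL2 replicates 1 to 4, against 7.61, 7.25 and 7.78 in untreated replicates 2 to 4. IL2 replicate 1 lay below untreated replicate 4, and the difference of 0.52 (SE 0.20, limma adjusted p = 0.307) did not pass. Wdr75 lost its call without IL2 replicate 2 or 3 or untreated replicate 4 (adjusted p of 0.054 to 0.0596), and the other 5 kept it without IL2 replicate 1 and lost it without any other single array (0.0676 to 0.176). Rrp9, Utp18 and Heatr1 passed without IL2 replicate 1 (limma adjusted p = 0.0332, 0.0273 and 0.0221).

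Of the 12 large-subunit factors 4 rose, the groups were apart for 8, and the median difference was 0.80. Rrp1b, a nucleolar protein of the Rrp1 family (10443836), had log2 intensities of 8.11, 8.60, 8.37 and 8.48 in IL2 replicates 1 to 4, against 7.13, 6.95 and 6.96 in untreated replicates 2 to 4. The 3 untreated arrays lay within 0.18 of each other and more than 0.9 below the lowest IL2 array. The means were 8.39 ± 0.21 (SD, n = 4) with IL2 and 7.01 ± 0.10 (n = 3) in untreated cells, a difference of 1.37 (SE 0.12, limma adjusted p = 0.00171) or 2.59-fold. This was the lowest adjusted p of the 41, and the call held in all 7 fits without 1 array (at most 0.0172). Gnl3, the nucleolar GTPase nucleostemin (10418480), had 8.29, 8.62, 8.73 and 9.03 in IL2 replicates 1 to 4, against 7.80, 7.38 and 7.40 in untreated replicates 2 to 4. Its groups were apart and its difference was 1.15 (SE 0.18, limma adjusted p = 0.0188). Noc3l (1.04), a nucleolar complex protein, and Nop16 (0.77) rose as well. The rRNA methyltransferase gene Nop2 had a difference of 1.04 (limma adjusted p = 0.0747) and Mrto4, a homolog of ribosomal stalk protein P0, of 0.97, and neither passed. Both passed with title style as a block (limma adjusted p = 0.0314 for Nop2 and 0.0161 for Mrto4).

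The PeBoW complex of Pes1, Bop1 and Wdr12, which processes the precursor of the large-subunit RNAs, had no member that passed in the fit without a block. Bop1 had a difference of 0.83 (SE 0.23, limma adjusted p = 0.139), and it passed with title style as a block (0.92, limma adjusted p = 0.0273) and after quantile normalization again (0.71, limma adjusted p = 0.0453). Wdr12 had 0.43 (SE 0.13, limma adjusted p = 0.16), with the groups apart, and its less bright probe gave 0.68. Pes1 (10373814) had 8.19, 8.52, 8.86 and 9.04 in IL2 replicates 1 to 4, against 8.30, 8.17 and 8.47 in untreated replicates 2 to 4. IL2 replicate 1 was inside the untreated range, and the difference of 0.33 (SE 0.20, limma adjusted p = 0.576) was the smallest of the 41. Rrs1, which in yeast helps to load the 5S particle (10344723) and was picked out after its values were seen, had 7.74, 7.22, 6.91 and 6.79 in IL2 replicates 1 to 4, against 6.91, 6.71 and 6.81 in untreated replicates 2 to 4. Its 2 highest values were in IL2 replicates 1 and 2, IL2 replicate 4 was below untreated replicate 2, and the difference was 0.35 (SE 0.21, limma adjusted p = 0.585). Nip7 (0.69) and Grwd1 (0.64), a chaperone of a large-subunit protein, had overlapping groups and did not pass. Gnl3 and Nop16 lost their calls without IL2 replicate 2, 3 or 4 or untreated replicate 3 or 4 (adjusted p of 0.0505 to 0.105), and Noc3l lost it without any single array except IL2 replicate 1 (0.0509 to 0.115). Nip7 passed without untreated replicate 2 (difference 0.89, limma adjusted p = 0.0486).

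Of the 6 nucleolar proteins with several roles 4 rose, and every IL2 array was above every untreated one for all 6, with a median difference of 0.94. Ddx21, an RNA helicase that acts in rRNA transcription and processing (10369630), had log2 intensities of 9.80, 10.22, 10.35 and 10.54 in IL2 replicates 1 to 4, against 9.27, 8.59 and 9.29 in untreated replicates 2 to 4. Untreated replicate 3 was low, and the difference was 1.17 (SE 0.23, limma adjusted p = 0.0378), or 2.26-fold. Mybbp1a, a MYB-binding nucleolar protein (10378088), had 9.18, 9.54, 9.98 and 10.12 in IL2 replicates 1 to 4, against 8.65, 8.35 and 8.89 in untreated replicates 2 to 4. Every IL2 array was above every untreated one, but the difference of 1.08 (SE 0.24, limma adjusted p = 0.065) did not pass. Ncl, or nucleolin (10356312), an abundant protein that binds nascent rRNA, had 10.19, 10.45, 10.57 and 10.51 in IL2 replicates 1 to 4, against 9.99, 9.67 and 9.57 in untreated replicates 2 to 4. The lowest IL2 array was 0.20 above the highest untreated array, and the difference was 0.69 (SE 0.13, limma adjusted p = 0.039), or 1.61-fold. Npm1, or nucleophosmin (10385043), a histone and ribosome chaperone, had 10.36, 10.38, 10.73 and 10.33 in IL2 replicates 1 to 4, against 10.05, 10.03 and 9.82 in untreated replicates 2 to 4. The groups were apart, IL2 replicate 3 stood above the other IL2 arrays, and the difference of 0.48 (SE 0.12, limma adjusted p = 0.097) did not pass. Nolc1, the snoRNP chaperone Nopp140 (1.00), and Pa2g4, a protein that binds ribosomes and rRNA (0.87), rose. Ncl and Pa2g4 lost their calls without IL2 replicate 2, 3 or 4 or untreated replicate 3 or 4 (adjusted p of 0.113 to 0.143), and Nolc1 and Ddx21 lost them without any single array except IL2 replicate 1 (0.0698 to 0.143). Mybbp1a passed without IL2 replicate 1 (1.25, limma adjusted p = 0.0256). No difference between role groups was tested.

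The activator gene Myc, which is not one of the 41, rose over the same arrays. Myc (10424400) had log2 intensities of 10.03, 10.43, 10.79 and 10.65 in IL2 replicates 1 to 4, against 8.45, 8.10 and 8.44 in untreated replicates 2 to 4. IL2 replicate 1 was the lowest and IL2 replicate 3 the highest of the IL2 arrays, and the difference was 2.14 (SE 0.19, limma adjusted p = 0.00153), or 4.41-fold.

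The other genes of the pathway were counted in the same way. Of 142 listed, 138 were measured, 6 rose (4.35%, against 2.08% of all genes), 0 fell, and 130 had a positive difference, with a median of 0.40. Utp4, of the small-subunit processome, had a difference of 1.02 (SE 0.20, limma adjusted p = 0.0392). Nifk, a nucleolar protein that binds Ki-67, had 0.95 (SE 0.18, limma adjusted p = 0.0344). Snu13, the box C/D core protein that binds the snoRNA, had 0.80 (SE 0.13, limma adjusted p = 0.0172). The remaining rises were in Nol6 (0.71), also of the processome, Nmd3 (0.50), the adaptor for export of the large subunit, and Znhit6 (0.77), which helps to assemble box C/D particles. By role, 2 of 40 small-subunit genes, 2 of 46 large-subunit genes and 2 of 10 snoRNP genes rose, with medians of 0.47, 0.50 and 0.67. Of 12 further genes of RNA polymerase I and its factors 0 were called (median 0.20, 2 with an unadjusted p under 0.05 and higher), and of 19 of RNA polymerase III 0 (median 0.23, 5 such). Of 11 exosome genes, whose products trim RNA from the 3′ end, 0 were called (median 0.31, 6 such). The largest differences in these lists were 0.64 for Rrn3, the initiation factor TIF-IA, 0.67 for Polr3d and 0.69 for Dis3, a nuclease of the exosome. Polr3d and Dis3 passed without IL2 replicate 1 (limma adjusted p = 0.04 and 0.0405). Without IL2 replicate 1, 25 of the 138 were called higher. Without untreated replicate 2 there were 9, and without any other single array 0, so that none of the 6 calls held in all 7 fits.

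Genes for the parts of the ribosome itself were set beside the factors. Of 60 cytosolic ribosomal protein genes 0 were called by limma, with 3 at an unadjusted p under 0.05 and higher, 25 positive and 35 negative differences, and a median of -0.02. Of 77 mitochondrial ribosomal protein genes 0 were called, with 28 at an unadjusted p under 0.05 and higher, 72 positive differences and a median of 0.26. Of 48 genes whose symbols start with Eif and a number, which are mainly translation initiation factors, 3 rose (6.25%, against 2.08% of all genes). In this list 19 had an unadjusted p under 0.05 and were higher, and the median was 0.23. Its largest difference was 1.90, for Eif2ak2, which is named for a kinase. These medians stand beside the 0.83 of the biogenesis factors without a test of the difference.

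**Figure D3:**
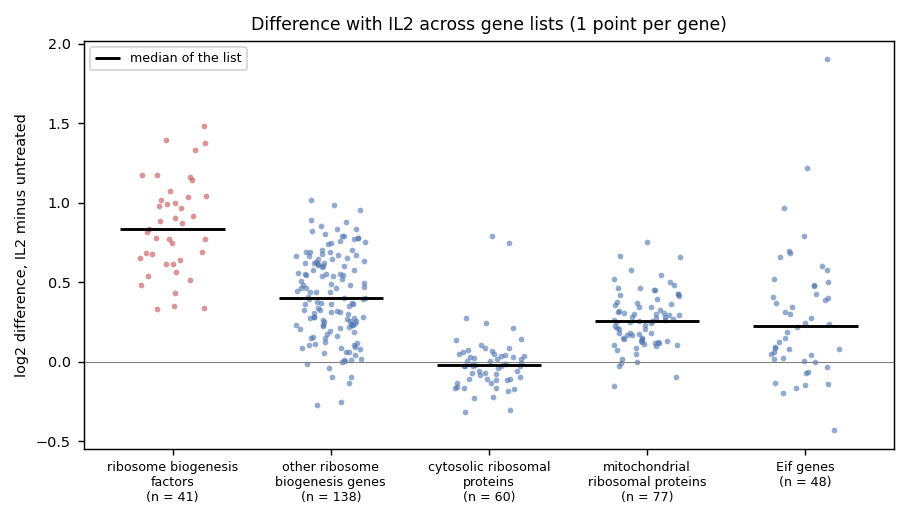
Points are genes, placed at their log2 difference, IL2 minus untreated, with a bar at the median of each list. The 41 ribosome biogenesis factors have a median of 0.83 and no gene below 0, the 138 other genes of the pathway 0.40, 60 cytosolic ribosomal proteins -0.02, 77 mitochondrial ribosomal proteins 0.26 and 48 Eif genes 0.23.

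Arrays of the IL2 group differed in a regular way for these genes, but not for these alone. The titles of replicates 3 and 4 of each group give the time and those of IL2 replicates 1 and 2 and untreated replicate 2 do not, although the treatment time is labelled as 8 h for each sample. IL2 replicate 1 was the lowest IL2 array for 38 of the 41 factors and IL2 replicate 4 the highest for 30. Neither count was made over all genes, and neither can show a trait of the factors. For 35 of 41 factors (85.4%) both IL2 arrays whose titles lack the time were below both that give it. This was so for 36.1% of all genes and for 53.4% of the brighter genes (mean signal at or above the median). The median over the factors, relative to the mean of the untreated arrays, was 0.50, 0.75, 1.02 and 1.15 in IL2 replicates 1 to 4, against 0.06, -0.19 and 0.16 in untreated replicates 2 to 4. The 75th percentile of intensity was 291, 318, 342 and 350 in IL2 replicates 1 to 4, lowest and highest in the same arrays, and its part in this pattern was not tested.

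Within the arrays whose titles give the time (2 IL2, 2 untreated) the median difference of the factors was 1.10, and within the others (2 IL2, 1 untreated) it was 0.56, with 41 of 41 positive in each. The interaction of IL2 with title style was tested for every gene, and 0 of 19752 passed an adjusted p of 0.05, while 2539 (12.9%) had an unadjusted p under 0.05. Among the factors 7 had such a p (17.1%), and among the other genes of the pathway 39 of 138 (28.3%). The share was 20.8% of mitochondrial and 5% of cytosolic ribosomal protein genes, and 18.8% of Eif genes. With arrays centred on their medians 17 factors had one (41.5%, against 15.1% of all genes), and after quantile normalization again 4 (9.76%, against 9.69%). The difference was larger with the time for 40 of 41 factors, against 50.7% of all genes and 78.9% of the brighter genes. Rrs1 was the exception, with 0.09 over the arrays that give the time and 0.56 over the others. The median interaction of the factors was 0.56, against 0.51 for the other genes of the pathway. For the factors it was 0.36 when the arrays had been quantile normalized again. With title style as a block in the fit, 26 of 41 factors rose, against 2.93% of all genes called higher, and the median was 0.88. These were the 18 and Rrp9, Rrp12, Heatr1, Nop2, Bop1, Mrto4, Grwd1 and Mybbp1a. Median differences of the macrophage and monocyte markers were -0.76 with the time and -1.31 without it, and of the NK cell markers 1.65 and 1.12, and their part was not tested either. Over the arrays that give the time alone, 3 rose, Nop58 (1.74), Dkc1 (1.67) and Rrp1b (1.47), against 0.41% of all genes. Over the 3 others limma called 0 factors and 0 genes, with 9 factors at an unadjusted p under 0.05 and higher (8.21% of all genes), and there the spread came from the 2 IL2 arrays alone, since 1 untreated array has none.

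**Figure D4:**
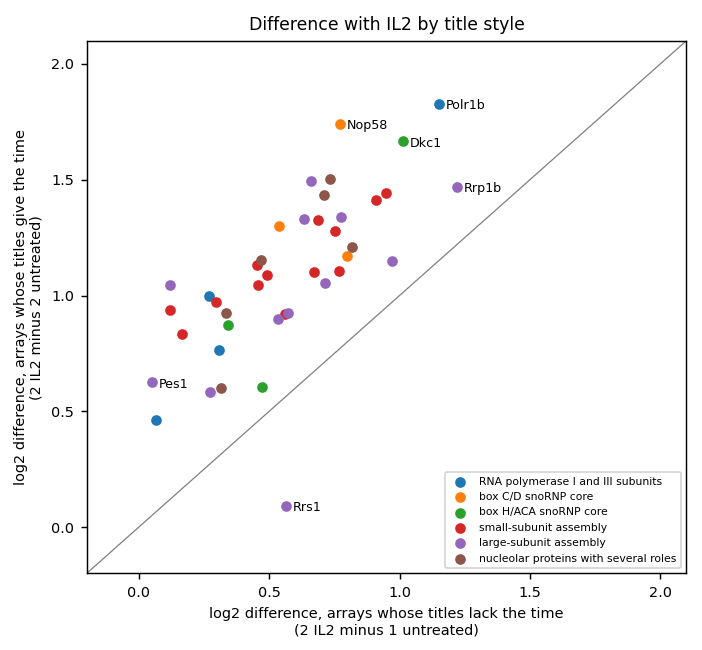
Each point is 1 of the 41 factors, coloured by role, at its log2 difference between IL2 and untreated over the 3 arrays whose titles lack the time (horizontal axis) and over the 4 whose titles give it (vertical axis), with the line of equal differences. All points but that of Rrs1 lie above the line, and all lie above 0 on both axes.

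The number of calls changed with single arrays, as the plot of settings shows. Without IL2 replicate 1, 24 factors were called higher (2.62% of all genes). Without untreated replicate 2, 10 were called (2.14%). Leaving out IL2 replicate 2, 3 or 4 left 2, 2 and 3 factors (0.678%, 0.729% and 0.805% of all genes), and leaving out untreated replicate 3 or 4 left 3 each (0.901% and 0.82%). The median difference stayed between 0.71 and 0.97 over these fits, and 41 of 41 differences were positive in each. Dkc1 and Rrp1b were called in every one of the 7. After quantile normalization again 28 factors were called (3.51% of all genes), with a median of 0.73. With arrays centred on their medians 21 were called (2.39%), with array quality weights 21 (2.8%), with eBayes trend and robust 18 (2%), and with all probes of a gene averaged 18 (2.09%). Among the brighter genes 24 of 40 factors were called (5.85%).

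**Figure D5:**
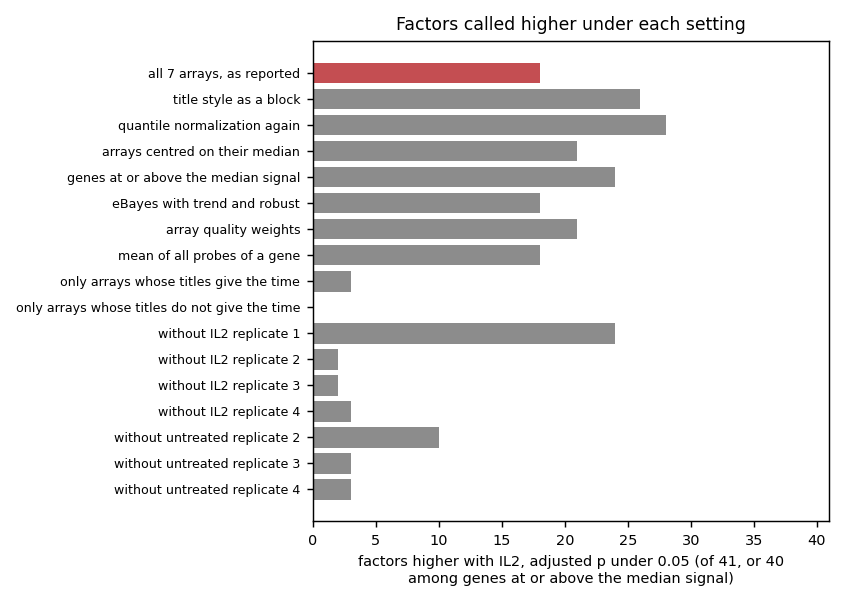
Bars start at 0 and give the number of factors called higher with IL2 at an adjusted p under 0.05. Each setting except the replicate block is shown, with all 7 arrays at the top (18). Counts run from 0 over the 3 arrays whose titles lack the time to 28 after quantile normalization again.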

How the data were processed

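Per the labels' protocols, TriZol was used to extract RNA of the 7 samples, and biotin targets were made with Ambion's WT Expression kit. The authors deposited 1 intensity per array for each transcript cluster, and the submitters' processing notes name RMA and Affymetrix Power Tools. Neither versions, settings nor the set of arrays normalized together are given in the sources used here. The deposited intensity values were linear and were taken to log2 with no offset. Probes were named from the platform annotation: 21425 of 24922 had 1 symbol, 1399 several and 2098 none. For the 921 genes with several probes the brightest was kept, and no gene was filtered.

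The 7 arrays were fitted with limma 3.58.1 (R 4.3.3, eBayes, 7.68 degrees of freedom), IL2 against untreated, with Benjamini-Hochberg correction over 19752 genes and a threshold of 0.05. The interaction with title style used the same values. Motifs were counted in RefSeq promoter windows (GRCm38.p6) with Python 3.11.15. The alternatives were a replicate block, title style as a block or alone, renormalization, centring, a signal filter, eBayes with trend and robust, array weights, all probes averaged, and leaving out each array.

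The genes and lists were chosen with earlier results of these data known. Factors are all named. Values per array are given for the 2 largest and the smallest difference of each role, and always for Ncl, Npm1, Fbl and Myc. For each role of the other genes the called gene with the largest rise, or with no call the largest difference, is named. Nol6, Nmd3, Znhit6 and the values of Rrs1 were added after they were seen. Exactly equal values on 2 arrays occurred in 2 of the 41 factors. Arrays give no counts, and their number limits the precision.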

Additional observations from a re-analysis of the deposited data

Results flagged for a closer look

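Single arrays stood apart from the other 3 of the IL2 group for 3 of the 41 factors, by Dixon's criterion for 4 values. Dkc1 had 8.52 in IL2 replicate 1, against 9.07 to 9.10 in the other IL2 arrays. Nhp2 had 7.70 in IL2 replicate 1, against 8.16 to 8.24 in the others. Npm1 had 10.73 in IL2 replicate 3, against 10.33 to 10.38 in the others. Chance marks about 1 in 20 such groups, and 16.4% of all genes were past the criterion on these 4 arrays. Each of these values lay above all untreated arrays of its gene.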

How the results depend on the processing

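The 41 factors had a positive difference under each alternative run (40 of 40 with the signal filter), and 0 of the named results turned round. The count of factors called higher, 18 with all arrays, was 28 after quantile normalization again, 3 over the 4 arrays with the time in their titles and 0 over the 3 others. With 1 array left out it was 2 to 24. It stayed within 1.5 times of 18 with title style as a block (26), centred arrays (21), the signal filter (24), eBayes with trend and robust (18), array weights (21) and averaged probes (18). The other pathway genes called higher, 6 with all arrays, were 29 after quantile normalization again, 17 with title style as a block, 10 with centred arrays, 18 with the signal filter, 13 with array weights, 1 over the 4 arrays with the time in their titles and 0 over the others, and 0 to 25 with 1 array left out. The fits on part of the arrays had fewer samples by construction, and otherwise the cause was not tested. The median difference of the factors moved throughout by less than the larger within-group SD of the arrays' means over the factors. That SD takes in both title styles, so it cannot show that the median is free of them. The median was 1.10 over the arrays with the time in their titles and 0.56 over the others.

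The replicate numbers 2, 3 and 4 shared by both groups were tried as a block. The numbers are not stated to pair the samples, so the fit with all arrays used no such block. Deviations from the group means correlated at 0.46, -0.299 and 0.308 between same-numbered arrays. With the replicate block 28 factors and 22 other pathway genes were called higher (2.8% of all genes), 17 of the 18 factors among them. IL2 replicate 1 has no untreated array of its number, so it did not enter the differences of this fit. The factors' median was 0.97, the same as without that array. Ltv1 and Znhit6 lost their calls (limma adjusted p = 0.0574 and 0.0597). Untreated replicates 2 and 4 correlated best with the IL2 arrays of their own number, and untreated replicate 3 with IL2 replicate 1. The interaction with title style called 0 genes under each of its 5 alternatives, with 4 to 17 factors and 1393 to 2989 genes at an unadjusted p under 0.05.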
